A study of Mus musculus with 6 samples.

Results

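Glucose phosphate isomerase (Gpi1), aldolase C (Aldoc), triosephosphate isomerase (Tpi1), glyceraldehyde phosphate dehydrogenase (Gapdh), phosphoglycerate kinase (Pgk1), phosphoglycerate mutase (Pgam1), alpha-enolase (Eno1) and muscle-type pyruvate kinase (Pkm) are 8 genes that encode enzymes of the middle and late steps of glycolysis. They were chosen by symbol among the 32285 genes listed, and all 8 were present in all 6 libraries. Their transcripts were counted by droplet-based 3' single-cell RNA sequencing in leukocytes of mice with tumors of SB28, a glioma line of the mouse, taken on day 18 after an injection of 10000 of its cells. Sorted tumor neutrophils, sorted blood neutrophils and all CD45+ cells of the tumor were profiled in 2 libraries each, with 20000 cells loaded per lane. Neutrophils were sorted as cells positive for CD45 (a surface protein of leukocytes) and CD11b that had high LY6G and low or no LY6C. Every group came from tumor-bearing mice, and no library of mice without a tumor was analysed here. Whether the numbered samples came from different mice is not stated, so the spread behind each p-value may be technical only.

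Glycolysis splits glucose into pyruvate in the cytosol and yields ATP without oxygen. Gpi1 and aldolase act on the hexose sugars, Tpi1 interconverts the triose phosphates, Gapdh makes NADH, Pgk1 and Pkm make ATP, and Pgam1 and Eno1 carry the carbon between those ATP-making steps. Neutrophils hold few active mitochondria and draw most of their ATP from this pathway. In low oxygen the transcription factor HIF is known to raise transcription of many glycolytic genes, through sites with the core letters ACGTG or GCGTG.

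The RefSeq promoter windows (GRCm38.p6, 250 bases before to 50 after each annotated start, 5' to 3') were searched for both cores on both strands, and all 8 genes had a window. The 4 printed here belong to the gene with the largest increase in tumor neutrophils (Tpi1), the gene that fell (Gpi1), and a pair with matches (Pgk1 and Gapdh). Capitals mark each match, written as ACGTG or GCGTG, or as CACGT or CACGC where it lies on the other strand.
Tpi1 (chr6:124814109-124814408, minus strand): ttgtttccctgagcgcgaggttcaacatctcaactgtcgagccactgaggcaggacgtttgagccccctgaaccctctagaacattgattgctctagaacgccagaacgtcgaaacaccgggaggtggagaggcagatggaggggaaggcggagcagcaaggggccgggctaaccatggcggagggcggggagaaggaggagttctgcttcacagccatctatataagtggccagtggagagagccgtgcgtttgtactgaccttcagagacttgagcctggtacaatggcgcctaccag
Gpi1 (chr7:34230287-34230586, minus strand): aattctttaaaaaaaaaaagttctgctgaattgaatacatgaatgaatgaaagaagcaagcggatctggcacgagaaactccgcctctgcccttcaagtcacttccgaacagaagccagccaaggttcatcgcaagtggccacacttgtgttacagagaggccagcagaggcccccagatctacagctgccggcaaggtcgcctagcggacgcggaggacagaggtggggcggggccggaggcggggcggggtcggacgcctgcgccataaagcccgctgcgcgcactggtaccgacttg
Pgk1 (chrX:106186850-106187149, plus strand): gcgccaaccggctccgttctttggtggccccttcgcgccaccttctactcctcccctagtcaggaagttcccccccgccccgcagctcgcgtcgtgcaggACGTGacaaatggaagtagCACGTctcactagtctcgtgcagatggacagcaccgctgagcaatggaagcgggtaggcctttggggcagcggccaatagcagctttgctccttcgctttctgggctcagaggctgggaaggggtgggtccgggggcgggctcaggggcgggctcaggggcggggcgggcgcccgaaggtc
Gapdh (chr6:125165724-125166023, minus strand): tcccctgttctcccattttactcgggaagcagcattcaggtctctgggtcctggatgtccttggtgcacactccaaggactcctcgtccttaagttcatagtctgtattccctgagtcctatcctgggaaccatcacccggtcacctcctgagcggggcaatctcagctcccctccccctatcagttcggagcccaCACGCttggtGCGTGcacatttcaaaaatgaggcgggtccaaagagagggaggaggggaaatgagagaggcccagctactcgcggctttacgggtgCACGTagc
No window of Tpi1 or Gpi1 held either core, and 6 of the 8 genes held at least 1 in a window, against 46.7% of the 27025 genes with a window. Of all 32851 windows, 19.6% held ACGTG and 32.4% held GCGTG. Pgk1 held 2 matches of ACGTG, and Gapdh 1 of ACGTG and 2 of GCGTG. Pgam1 and the first window of Aldoc held 3 matches each, and the windows of Eno1 held 2 of GCGTG each. For Pkm the first window held none and the second 2 of ACGTG. A match is a description of these letters only.

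The libraries held 21841452 and 32628481 unique molecular identifiers (UMIs, counts of captured transcripts) for sorted tumor neutrophils, 13945799 and 21636838 for sorted blood neutrophils and 82077047 and 129422458 for CD45+ tumor cells. A cell was called a neutrophil where S100a8 and S100a9, which encode the calprotectin subunits, took at least 0.5% of its UMIs. This gave 3347 and 5548 neutrophils in sorted tumor, 2951 and 5006 in sorted blood and 613 and 809 in the CD45+ tumor libraries, beside 8039 and 7298 other cells in those CD45+ libraries. Median depth was 3904 and 3872 UMIs per cell in sorted tumor neutrophils, 4253 and 3952 in blood neutrophils, 1614 and 2648 in CD45+ tumor neutrophils and 6748 and 12132 in the other cells. All 11 neutrophil markers, S100a8 and S100a9 among them, were detected in every neutrophil class. This did not set the classes apart. In the other cells all 11 were detected in the first CD45+ library, and all but Ly6g in the second. Cells just inside the threshold (0.5 to 1.0% of UMIs) had 347 and 254 CPM of Csf3r in the CD45+ libraries. Cells just outside it (0.25 to 0.5%) had 166 and 112 CPM there. In the sorted libraries Csf3r differed less at this edge, with 620 and 493 CPM inside against 503 and 439 CPM outside in tumor, and 4197 and 2840 CPM inside against 3991 and 3243 CPM outside in blood. The summed level of 11 macrophage markers was 5304 and 4086 CPM in sorted tumor neutrophils, 406 and 518 CPM in blood neutrophils, 8764 and 13046 CPM in CD45+ tumor neutrophils and 19058 and 21081 CPM in the other cells. The first CD45+ tumor library and the second sorted tumor library shared 162 cell barcodes, 2.45% of the smaller library, whereas the other 14 pairs of libraries shared 3 to 35. Values without all shared barcodes are given with each comparison.

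The first comparison asked how neutrophils inside the tumor differed from those in the circulation. Of the 8 enzyme genes, 7 rose in tumor neutrophils and 1, Gpi1, fell. Tpi1 rose most, 10.6-fold, and Pkm least, 1.68-fold. Across all 13635 genes tested, 64.0% passed the same threshold (33.3% higher and 30.7% lower), so passing it was common, and 7 of 8 in the higher direction stands beside that background. The median log2 fold change was 1.70 over the 8 genes and 0.02 over all genes tested. Levels below are counts per 1000000 UMIs (CPM), and fold changes come from edgeR's quasi-likelihood test on UMI counts summed per library, with Benjamini-Hochberg adjustment over all genes. Tumor and blood also differed in how cells were collected and dissociated, and tissue and handling cannot be told apart.

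Gpi1, which converts glucose phosphate to fructose phosphate at the head of this stretch, was at 191 and 199 CPM in the tumor neutrophil libraries and at 416 and 443 CPM in the blood libraries. Both tumor values lay below both blood values, and the log2 fold change was -1.08 ± 0.13 (SE, edgeR adjusted p = 0.000246). Aldoc, an aldolase best known from brain, was at 1.87 and 1.07 CPM in tumor and 0.466 and 0.257 CPM in blood, from 29 and 26 UMIs in tumor and 6 and 5 UMIs in blood. The groups did not overlap and the log2 fold change was 2.09 ± 0.50 (edgeR adjusted p = 0.0076), but the call rests on few UMIs and was lost without tumor replicate 1 (adjusted p = 0.068) or blood replicate 2 (adjusted p = 0.0567).

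Tpi1, which keeps both triose products of aldolase in use, was at 248 and 291 CPM in tumor neutrophils, against 24.6 and 28.8 CPM in blood neutrophils. The tumor libraries lay far above both blood libraries, and the log2 fold change was 3.40 ± 0.17 (edgeR adjusted p = 5.00e-06). Gapdh, often used as a reference gene for constant expression, was at 973 and 1042 CPM in tumor and 489 and 406 CPM in blood. It was not constant here: it rose 2.35-fold, a log2 fold change of 1.23 ± 0.17 (edgeR adjusted p = 0.000516). Pgk1, the first ATP-making enzyme of the pathway, was at 236 and 257 CPM in tumor and 71.3 and 58.7 CPM in blood, with a log2 fold change of 1.99 ± 0.17 (edgeR adjusted p = 4.01e-05).

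Pgam1, which shifts the phosphate of phosphoglycerate, was at 305 and 360 CPM in tumor neutrophils and 73.9 and 77 CPM in blood neutrophils. Its increase of 4.62-fold was the largest after Tpi1, with a log2 fold change of 2.21 ± 0.16 (edgeR adjusted p = 2.14e-05). Eno1, which makes phosphoenolpyruvate, was at 332 and 346 CPM in tumor and 147 and 120 CPM in blood, with a log2 fold change of 1.40 ± 0.16 (edgeR adjusted p = 0.000177). Its near-identical copy Eno1b was at 4.39 and 5.9 CPM in tumor and 3.19 and 3.81 CPM in blood, and how the authors' counting split reads between the copies is not known. Pkm, which makes pyruvate and ATP, was at 680 and 698 CPM in tumor and 453 and 400 CPM in blood, with a log2 fold change of 0.75 ± 0.15 (edgeR adjusted p = 0.00294). For all 8 genes the tumor and blood libraries did not overlap. The share of all genes without overlap was not computed, so this count has no background beside it.

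**Figure D1:**
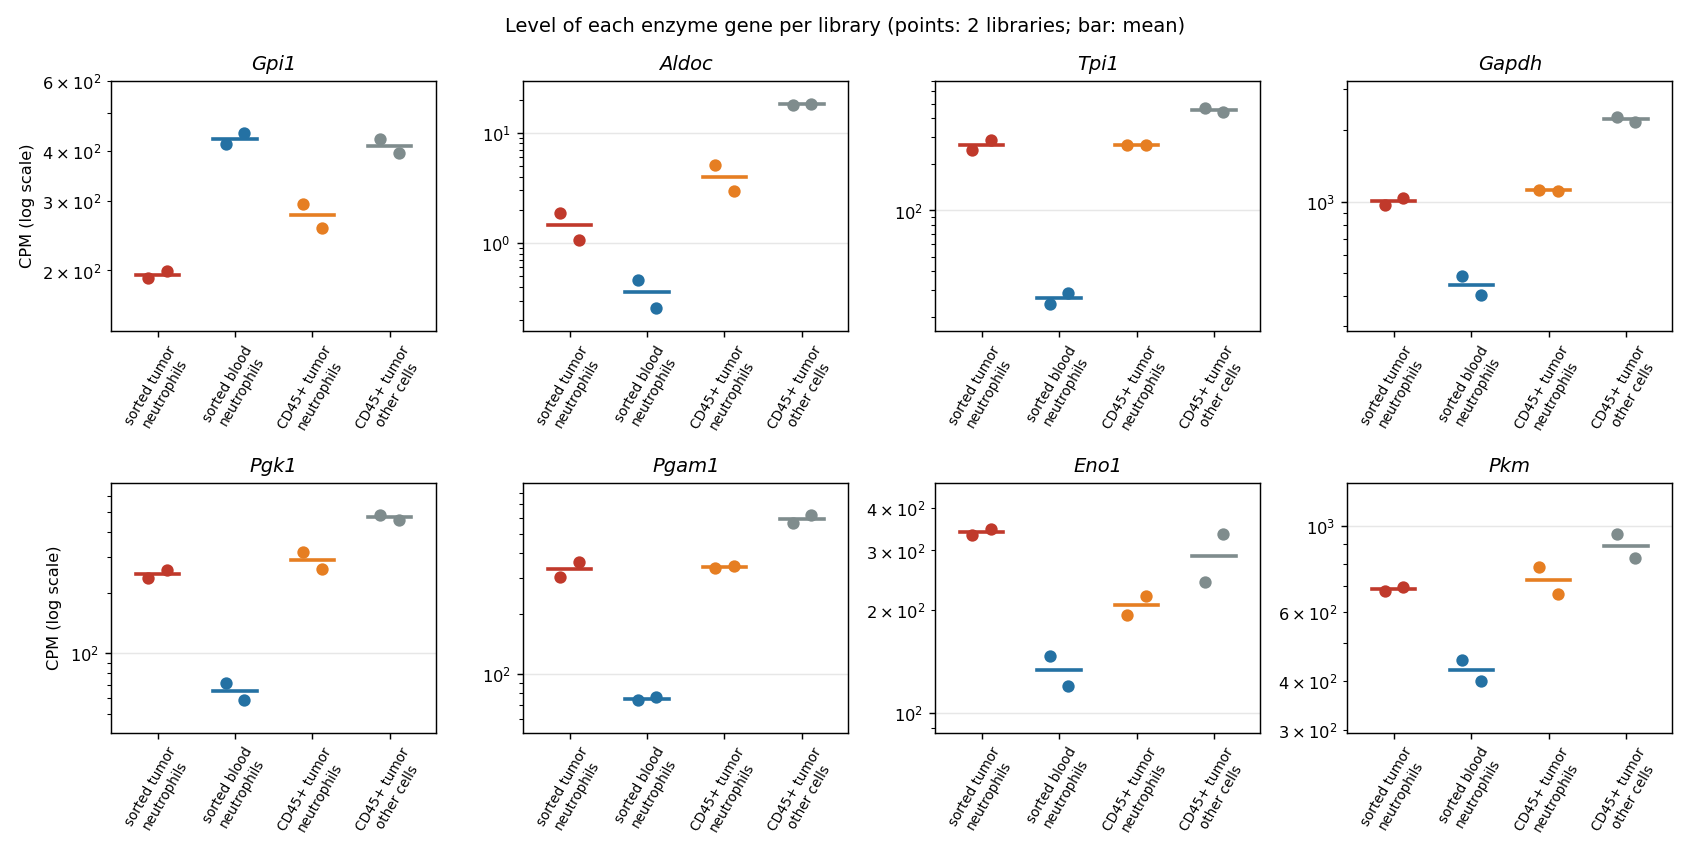
CPM of each enzyme gene (vertical axis, log scale, a separate range in each panel) in sorted tumor neutrophils, sorted blood neutrophils, CD45+ tumor neutrophils and other CD45+ tumor cells. Points are the 2 libraries and the bar their mean; blood is the lowest group for 7 genes, and for Gpi1 the sorted tumor libraries are lowest, at 191 and 199 CPM.

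Macrophage markers moved with this comparison, as given above. A UMI of C1qa, C1qb or C1qc, complement genes of macrophages, was present in 28.8% and 29.6% of tumor neutrophils and in 0.102% and 1.78% of blood neutrophils. The 6 tumor, neural or stromal markers summed to 10.2 and 11.2 CPM in tumor neutrophils, with Olig2 at 0, and to 0.389 and 0.926 CPM in blood neutrophils, with Gfap, Olig2, Sox2 and Cldn5 at 0 in both blood libraries; their part in the result was not tested. With every cell that held a C1q UMI left out, all 8 calls and directions were kept. The log2 fold change was then 3.66 for Tpi1, 1.43 for Gapdh, 1.06 for Pkm and -0.81 for Gpi1. Without shared barcodes all 8 calls were also kept, with -1.01 for Gpi1 and 3.49 for Tpi1. Tpi1 overlaps Spsb2 and Gapdh overlaps Iffo1 on the opposite strand, and whether strand was used in counting is not stated.

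Of 25 other genes of the pathway, 20 were tested; 14 rose and 3 fell in tumor neutrophils, and 3 did not pass the test. Their median log2 fold change was 1.38. The lactate dehydrogenase subunit gene Ldhb rose most, to 26.2 and 22 CPM in tumor, against 0.7 and 0.874 CPM in blood (log2 fold change 4.96). The phosphofructokinase gene Pfkl, of the committed step of the pathway, followed at 92.7 and 95.1 CPM in tumor and 8.39 and 6.38 CPM in blood (3.74). Aldoa, the gene of another aldolase, had the smallest increase among those called, at 430 and 473 CPM in tumor and 280 and 259 CPM in blood (0.81). Pfkfb4, a regulator of fructose bisphosphate, fell most, to 52.8 and 50.8 CPM in tumor, against 239 and 220 CPM in blood (-2.09). The glucose transporter gene Slc2a3 fell by 0.70 and Pdha1, a subunit gene of pyruvate dehydrogenase, fell by 0.79 on the log2 scale. A decrease was therefore not limited to Gpi1 among the genes of the pathway.

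Sorted tumor neutrophils were then split by a hypoxia score, to see how the enzyme genes varied among neutrophils of a single library. Oxygen was not measured, and hypoxia-high and hypoxia-low name levels of this score only. Each cell was scored by the share of its UMIs from 14 HIF target genes, such as Vegfa, Adm, Ndrg1 and Bnip3, none of which encodes a glycolytic enzyme, and the highest and lowest terciles were taken within 20 bins of total UMIs. This gave 1107 and 1840 cells in each tercile, with 6362 and 7073 CPM of the score genes in the high tercile and 340 and 368 CPM in the low tercile. All 8 enzyme genes were higher in the hypoxia-high tercile, against 41.5% of 11243 genes tested that were called (22.5% higher and 19.0% lower). The median log2 fold change was 2.06 over the 8 genes and -0.08 over all genes tested. With 2 libraries and the library as a block, p-values between the terciles rest largely on a variability shared across genes. They do not measure the spread of each gene between the libraries.

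Tpi1 again differed most, with 545 and 640 CPM in hypoxia-high cells and 63.2 and 71.7 CPM in hypoxia-low cells (log2 fold change 3.44 ± 0.11, SE; edgeR adjusted p = 6.61e-10). Pgk1 was at 460 and 497 CPM in hypoxia-high cells and 77 and 92.5 CPM in hypoxia-low cells (2.81 ± 0.11). Pgam1 was at 550 and 705 CPM in hypoxia-high cells, and at 122 CPM in both libraries of hypoxia-low cells (2.67 ± 0.12). These 3 genes had the largest differences, and the terciles did not overlap in any of them. Gapdh was at 1590 and 1743 CPM in hypoxia-high cells and 538 and 546 CPM in hypoxia-low cells (1.93 ± 0.10). Eno1 was at 565 and 595 CPM in hypoxia-high cells and 158 and 166 CPM in hypoxia-low cells (2.15 ± 0.10). Pkm was at 987 and 986 CPM in hypoxia-high cells and 447 and 458 CPM in hypoxia-low cells (1.43 ± 0.09). For these genes too, both libraries of hypoxia-high cells lay above both of hypoxia-low cells. How many of all genes separated the terciles in this way was not computed, so the lack of overlap has no background beside it.

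Gpi1, which fell in tumor against blood, was also higher in the hypoxia-high tercile, at 309 and 272 CPM, against 142 and 177 CPM in the hypoxia-low tercile (log2 fold change 1.17 ± 0.12, SE; edgeR adjusted p = 4.57e-06). With neutrophils limited to those with at least 5% of UMIs from S100a8 and S100a9 and no C1q UMI, the Gpi1 difference was 0.30 and its call was lost (edgeR adjusted p = 0.0952), and 6 members stayed called. Aldoc was at 1.79 and 2.06 CPM in hypoxia-high cells and 0.97 and 0.358 CPM in hypoxia-low cells, from 9 and 16 against 5 and 3 UMIs (1.97 ± 0.62, edgeR adjusted p = 0.021). Its call was lost with a split at the median (adjusted p = 0.136) and with scaling by total UMIs (adjusted p = 0.0554). Macrophage markers ran the other way: their sum was 3566 and 2080 CPM in hypoxia-high cells and 6399 and 6443 CPM in hypoxia-low cells. The sum of 6 tumor, neural or stromal markers moved with the enzyme genes, at 20.5 and 22.4 CPM in hypoxia-high cells and 3.88 and 3.23 CPM in hypoxia-low cells; Olig2 was at 0 in both sets, and the part of these cells in the result was not tested. Without shared barcodes the 7 genes that could be tested kept their calls.

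Of the other genes of the pathway, 18 were tested between the hypoxia terciles, with 11 higher, 1 lower and 6 not called in hypoxia-high cells, and a median log2 fold change of 1.56. Pfkl differed most, at 208 and 213 CPM in hypoxia-high cells and 17.8 and 22.6 CPM in hypoxia-low cells (3.68). Ldha, which makes the lactate dehydrogenase subunit of muscle, followed at 1197 and 1502 CPM in hypoxia-high cells and 166 and 168 CPM in hypoxia-low cells (3.32). Slc2a3 had the smallest called increase, at 375 and 291 CPM in hypoxia-high cells and 288 and 192 CPM in hypoxia-low cells (0.80). Ldhb, the subunit gene of heart, was the one that fell, to 13.7 and 9.52 CPM in hypoxia-high cells, against 34.7 and 38.4 CPM in hypoxia-low cells (-1.38). Ldhb was thus higher in tumor than in blood and lower in hypoxia-high than in hypoxia-low cells, the reverse of Gpi1.

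**Figure D2:**
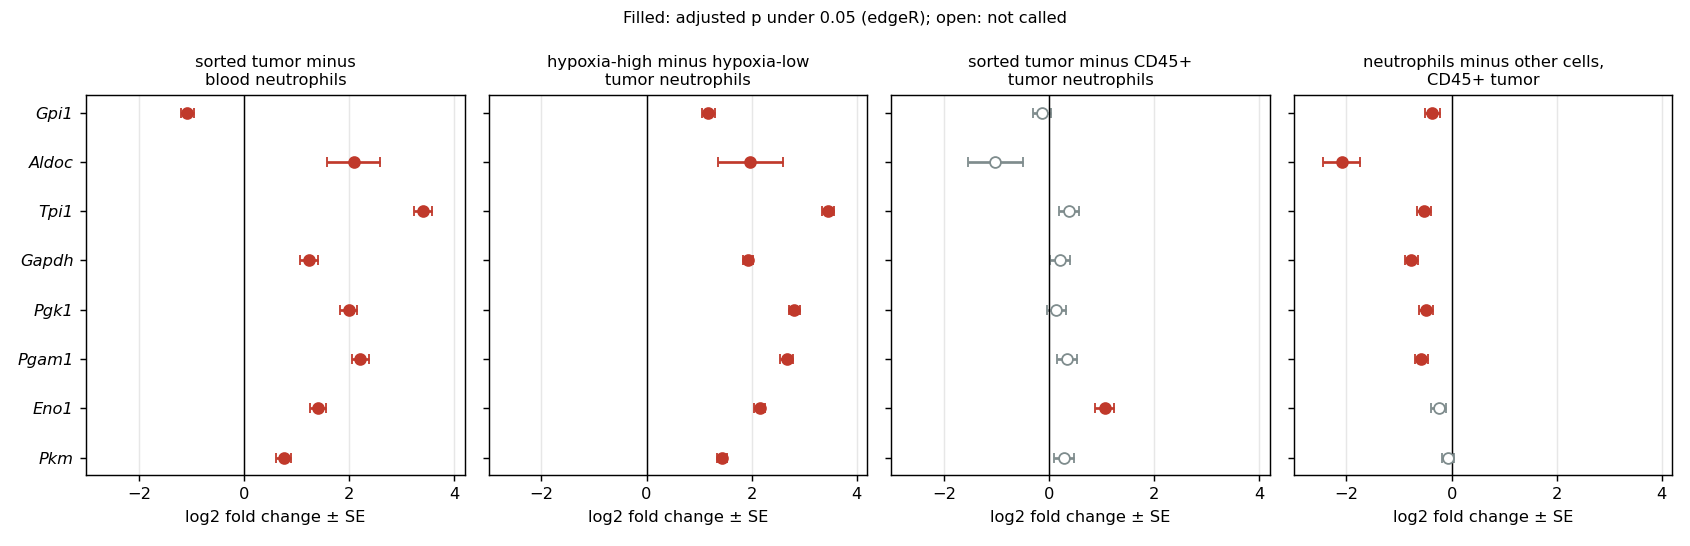
Log2 fold change ± SE (horizontal axis) of each enzyme gene in the 4 comparisons, from edgeR; filled points had an adjusted p under 0.05. Tpi1 lies farthest to the right in the tumor against blood panel (3.40) and in the hypoxia panel (3.44), and Gpi1 changes side between them (-1.08 and 1.17).

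Over quintiles of tumor neutrophils from low to high hypoxia score, Tpi1, Gapdh, Pgk1, Eno1, Pgam1 and Pkm rose at every step in both libraries. Tpi1 had 52.6, 88.7, 135, 295 and 689 CPM in the first library and 57.1, 100, 189, 370 and 786 CPM in the second. Gpi1 had another course, with 144, 135, 134, 154 and 397 CPM in the first library and 176, 166, 153, 163 and 346 CPM in the second. Its level was nearly flat over the lower 4 quintiles and was higher in the top quintile alone, where it still lay under the 416 and 443 CPM of blood. Aldoc had at most 2.99 CPM in a quintile and followed no common course in the libraries. These values are a description, with no test.

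**Figure D3:**
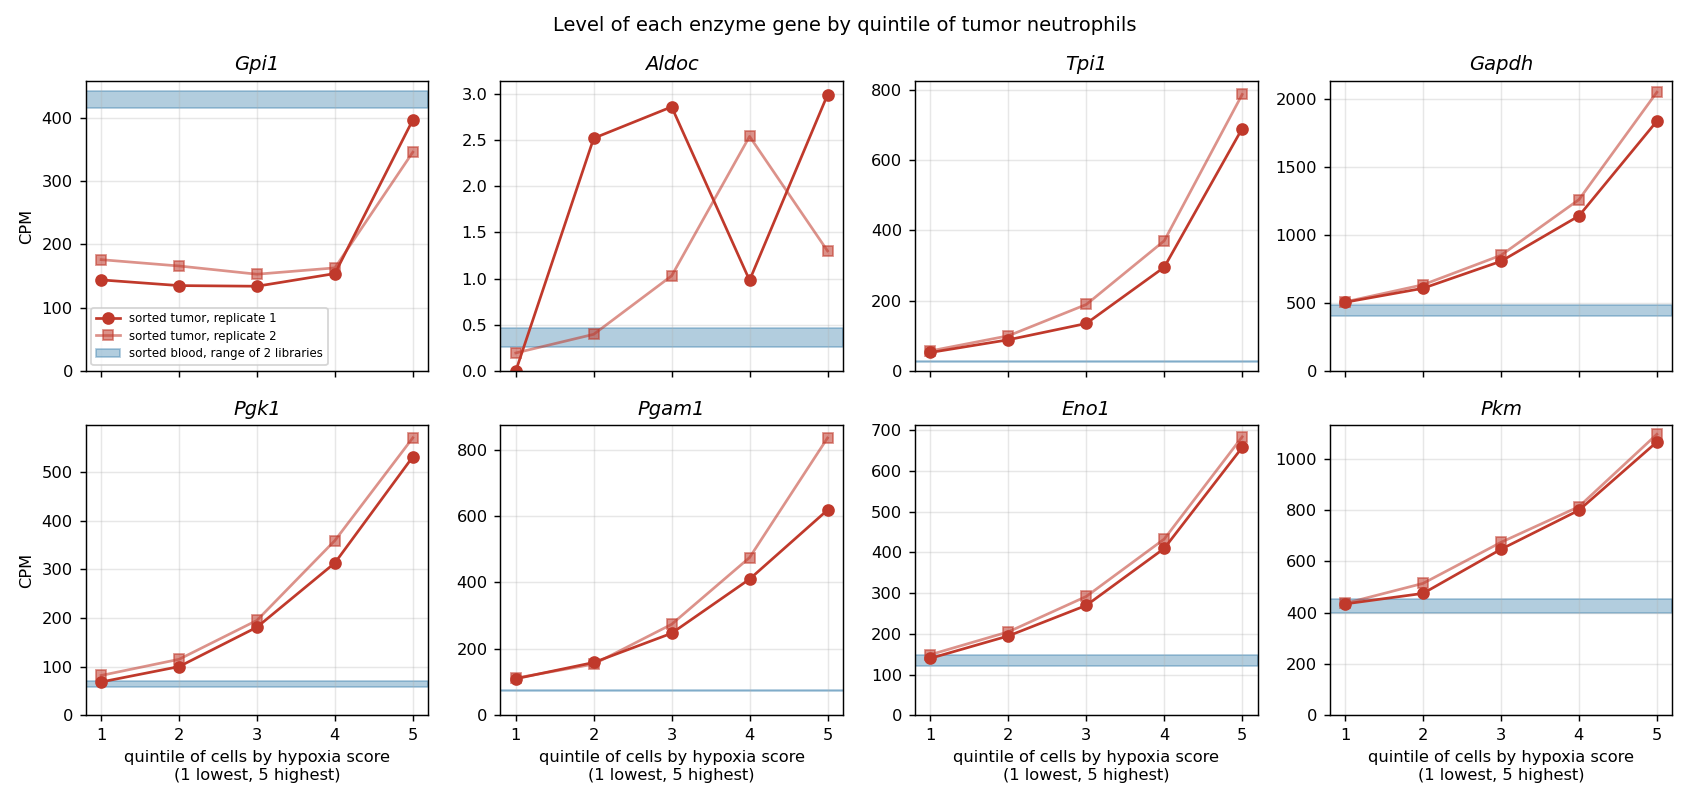
CPM of each enzyme gene (vertical axis, from 0) in quintiles of sorted tumor neutrophils ordered by hypoxia score, from 1 (lowest) to 5 (highest), a line for each tumor library; the blue band spans the 2 blood libraries. Gpi1 stays under the blood band in all 5 quintiles, and Pkm meets it in the lowest quintile at 434 and 436 CPM.

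The lowest tercile could also be set against blood neutrophils, which were not split. In this comparison, added after the data were seen, 2 of the members were called higher and 1 lower. Tpi1 was higher by 1.38 ± 0.14 and Pgam1 by 0.73 ± 0.11 on the log2 scale (SE, edgeR adjusted p = 0.000143 and 0.000844), and Gpi1 was lower, at -1.38 ± 0.15 (edgeR adjusted p = 0.0002). Gapdh (0.31, adjusted p = 0.095), Pgk1 (0.43, adjusted p = 0.0598), Eno1 (0.31, adjusted p = 0.0968) and Pkm (0.12, adjusted p = 0.456) did not pass the edgeR test, and Aldoc was not tested. The highest tercile against blood gave 7 members higher, with 4.72 for Tpi1, and Gpi1 at -0.33 was not called (edgeR adjusted p = 0.0678). Macrophage markers summed to 6399 and 6443 CPM in the low tercile, against 406 and 518 CPM in blood neutrophils. C1q-high cells of the CD45+ libraries had 445 and 393 CPM of Tpi1 and 572 and 581 CPM of Pgam1. The low tercile was not fitted without C1q-positive cells, so the part of macrophage RNA in the Tpi1 and Pgam1 calls was not tested. Both terciles were set against the same blood libraries, so these results share their controls. The share of all genes called in these fits is not given, so the counts of members stand without a background.

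The CD45+ tumor libraries allowed neutrophils to be set against the other leukocytes of the same library. Here 6 of the 8 enzyme genes were lower in neutrophils and none was higher, against 41.7% of 16138 genes tested that were called (22.8% lower and 18.9% higher). The median log2 fold change was -0.51 over the 8 genes and -0.16 over all genes tested. Aldoc was at 5.06 and 2.94 CPM in neutrophils and 17.9 and 18.3 CPM in the other cells, with only 7 and 10 UMIs in neutrophils (log2 fold change -2.09 ± 0.35, SE; edgeR adjusted p = 2.55e-08). Gapdh was at 1127 and 1116 CPM in neutrophils and 2280 and 2178 CPM in the other cells (-0.76 ± 0.12, edgeR adjusted p = 3.44e-09). Before TMM scaling the log2 ratio of Gapdh was -1.02 in the first library and -0.96 in the second, so the libraries gave nearly the same value. The p-values of this fit rest largely on a variability shared across genes, and do not measure the spread of each gene between the libraries.

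Tpi1 was at 268 CPM in neutrophils of both libraries and at 466 and 440 CPM in the other cells (log2 fold change -0.53 ± 0.14, edgeR adjusted p = 0.000559). Pgk1 was at 316 and 261 CPM in neutrophils and 483 and 457 CPM in the other cells (-0.49 ± 0.14), and Pgam1 at 336 and 344 CPM in neutrophils and 564 and 619 CPM in the other cells (-0.57 ± 0.12). Gpi1 was at 295 and 256 CPM in neutrophils and 430 and 396 CPM in the other cells (-0.36 ± 0.14, edgeR adjusted p = 0.0229). Eno1, at 194 and 221 CPM in neutrophils and 243 and 336 CPM in the other cells, did not pass the test (-0.24 ± 0.14, edgeR adjusted p = 0.154). Pkm did not pass either, at 785 and 669 CPM in neutrophils and 950 and 829 CPM in the other cells (-0.07 ± 0.12, edgeR adjusted p = 0.693), and its sign turned in 5 alternatives. Both genes were called lower with scaling by total UMIs, Eno1 at -0.47 (edgeR adjusted p = 0.000119) and Pkm at -0.29 (edgeR adjusted p = 0.0157), and Eno1 also with no filter on low counts and at the 5% threshold without C1q (-0.33 and -0.60). The calls depended on treating the library as a block: without it, Aldoc and Gapdh alone were called lower, and Tpi1, Pgk1, Pgam1 and Gpi1 had adjusted p = 0.0549, 0.0625, 0.0672 and 0.107. The Gpi1 call was also lost with DESeq2 (adjusted p = 0.159), at thresholds of 1%, 2% and 5% (the last without C1q; edgeR adjusted p = 0.056, 0.29 and 0.0715), without C1q-positive neutrophils (0.14) and against C1q-high cells alone (0.21), and the Pgk1 call against C1q-high cells alone (0.0833). At the 5% threshold without C1q, Gapdh was at -1.46, Tpi1 at -1.36, Pgam1 at -1.29 and Pgk1 at -0.92, beside a median of -1.20 over all genes tested. With C1q-high cells alone as the other cells 4 members were called lower, and without shared barcodes all 6 calls were kept.

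Of the other genes of the pathway in the same comparison, 21 were tested, with 10 higher, 4 lower and 7 not called in neutrophils, and a median of 0.58, opposite in sign to that of the 8 enzymes. The glucose transporter gene Slc2a3 differed most, at 185 and 179 CPM in neutrophils and 6.87 and 5.73 CPM in the other cells (log2 fold change 5.09). The myeloid hexokinase gene Hk3 was at 137 and 109 CPM in neutrophils and 34.9 and 32.2 CPM in the other cells (2.08). Slc2a1, Hk1, Hk2, Pfkl, Pfkp and the lactate exporter gene Slc16a3 were also called higher, and Pfkm was not called. Of the 4 genes called lower, Eno3 differed most, at 2.89 and 2.06 CPM in neutrophils and 6 and 7.27 CPM in the other cells (-1.31). Slc16a1 (-0.99) and Pdha1 (-0.64) followed. Aldoa differed least of them, at 417 and 487 CPM in neutrophils and 721 and 873 CPM in the other cells (-0.59).

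The other cells were not uniform. C1q-high cells (3137 and 3163, with at least 0.2% of UMIs from the C1q genes) had 445 and 393 CPM of Tpi1 and 2294 and 2018 CPM of Gapdh. Cells with Cd3 or Ncr1 transcripts, which mark T cells and natural killer cells (299 and 179 cells), had 238 and 160 CPM of Tpi1 and 1211 and 878 CPM of Gapdh. Cells with Cd79 transcripts, which mark B cells (169 and 54 cells), had 180 and 199 CPM of Tpi1 and 823 and 1010 CPM of Gapdh. The rest, in none of these gates, was the largest class (4434 and 3902 cells). It had 505 and 500 CPM of Tpi1 and 2352 and 2399 CPM of Gapdh, above C1q-high cells in both libraries. The lymphocyte classes were thus lower than C1q-high cells in both libraries for both genes. For Pkm they had 489 and 312 CPM (Cd3 or Ncr1) and 291 and 320 CPM (Cd79), against 919 and 774 CPM in C1q-high cells. The rest had 1020 and 906 CPM of Pkm. No test was run between these classes.

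Ordered by level, 5 genes (Aldoc, Tpi1, Gapdh, Pgk1 and Pgam1) were highest in the other CD45+ cells and lowest in blood neutrophils, with both sets of tumor neutrophils between them. Sorted and CD45+ tumor neutrophils overlapped for Tpi1 and Pgam1. Pkm had the same order of means, with sorted and CD45+ tumor neutrophils overlapping. Eno1 was highest in sorted tumor neutrophils, whose range overlapped that of the other cells (332 and 346 against 243 and 336 CPM), and blood was lowest. Gpi1 was highest in blood neutrophils and in the other CD45+ cells, which overlapped, then in CD45+ tumor neutrophils and lowest in sorted tumor neutrophils.

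Sorted tumor neutrophils were also compared with neutrophils found among all CD45+ tumor cells. The sets also differed in macrophage markers and depth, as given above. The way the cells were obtained cannot be told apart from these. Only Eno1 of the 8 genes passed the test, beside 6.10% of 12497 genes in either direction (2.17% higher and 3.93% lower). Eno1 was at 332 and 346 CPM in sorted neutrophils and 194 and 221 CPM in CD45+ neutrophils (log2 fold change 1.06 ± 0.18, SE; edgeR adjusted p = 0.0278). The call was lost without shared barcodes (adjusted p = 0.0832), without C1q-positive cells (adjusted p = 0.167), at stricter thresholds, and without either sorted tumor replicate (adjusted p = 0.0537 without replicate 1 and 0.18 without replicate 2). Eno1b was at 4.39 and 5.9 CPM in sorted neutrophils and 20.2 and 4.71 CPM in CD45+ neutrophils, so its first CD45+ library stood apart; the part of this copy in the Eno1 difference was not tested. The differences of the other 7 genes lay between -1.02 (Aldoc) and 0.37 (Tpi1) and did not pass the test. In simulated counts this fit found only 10% of 2-fold changes. Of the other genes of the pathway, 20 were tested and 2 were called higher, Hk2 at 461 and 412 CPM in sorted and 269 and 226 CPM in CD45+ neutrophils (1.18) and Slc2a3 at 289 and 223 CPM in sorted and 185 and 179 CPM in CD45+ neutrophils (0.84).

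Shares of cells with a UMI were compared at equal depth. Each cell was thinned to 1000 UMIs, and shallower cells were left out (99 and 184 in sorted tumor, 130 and 572 in blood, 99 and 32 CD45+ neutrophils and 376 and 120 other cells). A Tpi1 UMI was present in 17.9% (95% Clopper-Pearson interval 16.6 to 19.3) and 20.4% (19.3 to 21.5) of sorted tumor neutrophils, against 2.69% (2.13 to 3.36) and 2.57% (2.13 to 3.08) of blood neutrophils. A Gpi1 UMI was present in 15.6% and 16% of sorted tumor neutrophils and 32.1% and 35.5% of blood neutrophils. Before thinning the mean shares were 40.9% in sorted tumor and 9.57% in blood neutrophils for Tpi1, and 40% in sorted tumor and 73.7% in blood neutrophils for Gpi1. Intervals cover counting error only, and free RNA can add UMIs to cells of any type.

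The number of the 8 genes seen in a thinned cell averaged 1.95 and 2.04 in sorted tumor neutrophils, 1.3 and 1.25 in blood neutrophils, 1.96 and 2.01 in CD45+ tumor neutrophils and 2.72 and 2.73 in the other cells. At least 4 members were seen in 16.3% and 18.4% of sorted tumor neutrophils and in 2.23% and 1.58% of blood neutrophils. Within sorted tumor neutrophils that share was 39.4% and 41.8% in hypoxia-high cells and 2.15% and 3.05% in hypoxia-low cells. The hypoxia-low share lay close to that of blood, and no test was run between them.

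**Figure D4:**
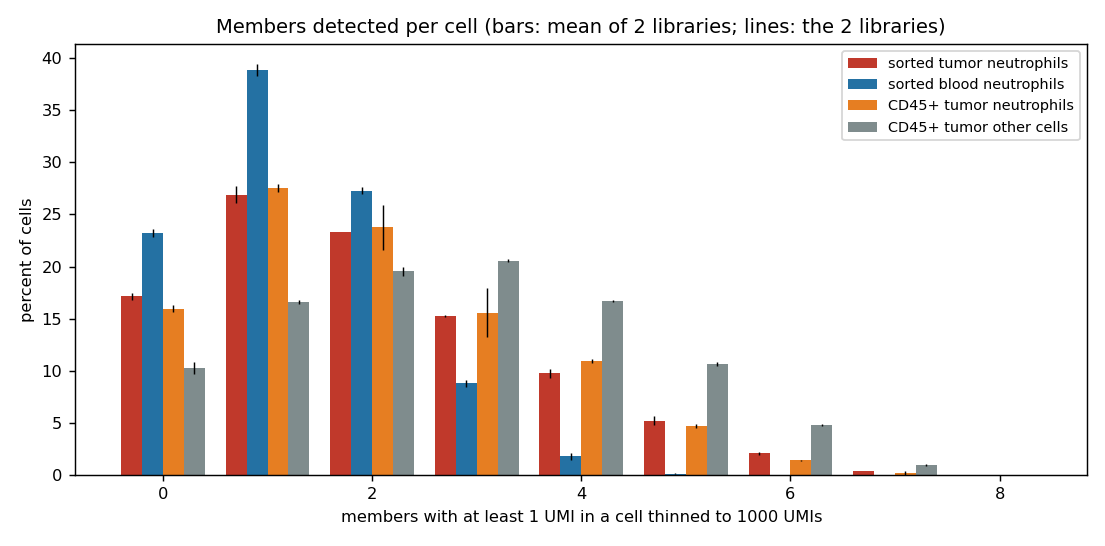
Percent of cells (vertical axis) by the number of the 8 enzyme genes with at least 1 UMI after thinning to 1000 UMIs (horizontal axis), for sorted tumor neutrophils, sorted blood neutrophils, CD45+ tumor neutrophils and other CD45+ tumor cells. Bars are the mean of 2 libraries and lines span them; bars for blood are highest at 0 to 2 members and nearly vanish from 5 on.

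Over the 8 sums of cells (4 classes in 2 libraries each), the log2 profiles of the members were correlated with their mean profile at r = 0.997 for Gapdh, 0.980 for Pgk1, 0.972 for Pgam1 and Pkm, 0.942 for Tpi1, 0.931 for Aldoc and 0.739 for Eno1. Gpi1 differed, at r = -0.103. Each member is itself part of this mean, which raises its own r. Among 5422 genes with a mean of at least 20 CPM, the profiles most like this mean were those of Rassf1 (r = 0.9921), Txnl4a (0.9918), Slc30a9 (0.9912), Sept7 (0.9912) and Prelid3b (0.9900). Rassf1 was at 55.8 and 55.4 CPM in sorted tumor neutrophils, 35 and 37.3 CPM in blood neutrophils, 60.7 and 58.8 CPM in CD45+ tumor neutrophils and 87 and 88 CPM in the other cells. The sums share libraries and classes, so these correlations only describe the order of the levels. Gpi1 lies on chromosome 7 from 34201330 to 34230336 (minus strand) and Tpi1 on chromosome 6 from 124810586 to 124814296 (minus strand), both on mm10 as protein-coding genes of GENCODE vM21.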

How the data were processed

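The authors deposited filtered matrices of raw UMI counts. The submitters' processing notes name Cell Ranger 7.1.0 and mm10 but no annotation. Groups came from the labels. The members, lists and splits were chosen with earlier results of these data known. All 8 members are named. So are, by rule, the other pathway genes with the largest and smallest changes among those called. Some genes were named after their values were seen. In the comparison with other cells these were Slc2a1, Hk1, Hk2, Pfkl, Pfkp, Pfkm, Slc16a3, Aldoa, Eno3, Slc16a1 and Pdha1. Between the hypoxia terciles this was Slc2a3, and in tumor against blood these were Pdha1 and Slc2a3.

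Barcodes under 200 genes or above 10% mitochondrial UMIs were left out. Scrublet (scanpy 1.11.5) marked almost no doublets at its automatic threshold, so the highest scores were removed at 0.8% per 1000 cells, leaving 4003 and 6235 sorted tumor, 3037 and 5084 sorted blood and 8652 and 8107 CD45+ cells. UMIs were summed per library and class and tested with edgeR 4.0.16 (TMM, filterByExpr, quasi-likelihood, limma 3.58.1, R 4.3.3). The 2 comparisons within libraries had the library as a block, since both classes come from the same library; S100a8 and S100a9, or the score genes, were left out of the genes tested. CPM use unscaled totals. Differences between replicates were barely correlated between sorted tumor and blood neutrophils (-0.067) and between sorted and CD45+ tumor neutrophils (0.016). With 2 libraries per group this cannot exclude that a shared number marks a shared mouse. The labels do not state it, so no block was used between groups. Replicates of a group differed by more than counting noise (chi-square per degree of freedom 10 to 22.5), so none was treated as the same library deposited again; this does not show that they came from different mice. Alternatives, DESeq2 1.42.0 among them, are in the closing section. Each fit was tested on simulated counts in which 200 genes were changed. In tumor against blood it found 63% of the 2-fold and 97% of the 4-fold changes (2 calls were false, 13467 genes). The shares were 75% and 96% for hypoxia-high against hypoxia-low cells (6 false, 11083 genes), 49% and 80% for neutrophils against other cells (7 false, 16025 genes) and 10% and 69% for sorted against CD45+ neutrophils (0 false, 12196 genes).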

Additional observations from a re-analysis of the deposited data

How the results depend on the processing

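In tumor against blood, all 8 members kept their direction under every alternative in which they could be tested. Calls were lost only where given above for Aldoc and for the hypoxia terciles. Members called were 2 higher with the low tercile and 0 lower with the high tercile. With the replicate block, whose pairing the labels do not state, Tpi1 was at 3.39 and Gpi1 at -1.08. The block changed no call of a member. In hypoxia-high against hypoxia-low cells no direction turned. Scaling by total UMIs moved the median of all genes to -0.38 in sorted against CD45+ neutrophils, and to -0.39 both in neutrophils against other cells and in hypoxia-high against hypoxia-low cells. In sorted against CD45+ neutrophils (271 genes higher and 491 lower, and 1 member higher) it turned Gapdh to -0.15, Pgk1 to -0.22, Pgam1 to -0.03 and Pkm to -0.077, and gave 142 higher and 1791 lower. Pgk1 was at -0.029 without C1q-positive cells, and between -0.006 (without tumor replicate 2) and 0.283 (without tumor replicate 1) when a replicate was left out. DESeq2 called 574 higher, the replicate block 508 higher, no filter on low counts 1256 higher and 1271 lower, and no doublet removal 2163 higher and 2416 lower, with 1 member lower (Aldoc, -2.06). Thresholds of 1% and 2% gave 1 and 0 higher and 14 and 0 lower, cells without a C1q UMI 0 and 10, the 5% threshold without C1q 0 and 2, and no shared barcodes 3 and 38, each with 0 members higher. Leaving out a replicate there gave 3 to 722 genes higher, 27 to 1063 lower and 0 to 1 members higher, so this count is not stable.

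In neutrophils against other cells, the median of all genes was -0.68 without C1q-positive neutrophils, -0.63 with no filter, -0.45 at 2% and -1.20 at the 5% threshold without C1q, against -0.16. Pkm was at 0.045 with DESeq2, 0.044 with its size factors and with C1q-high cells alone, 0.11 at 2% and 0.035 without C1q-positive cells. DESeq2 called 1831 genes lower there, the fit with no replicate block 1772 higher and 1417 lower with 2 members lower, and the 5% threshold without C1q 1591 higher. In hypoxia-high against hypoxia-low cells DESeq2 called 775 lower, total UMIs 1639 higher and 3508 lower, no replicate block 1302 lower, and the 5% threshold without C1q 1495 higher and 1139 lower. The causes were not tested. Leaving out a library in the comparisons within libraries leaves no residual degrees of freedom, so it was not run. Depth limits Aldoc most, with at most 29 UMIs in a neutrophil sum, and CD45+ neutrophils, with a median of 1614 and 2648 UMIs. The gate at 5% without C1q, the shared barcodes and the hypoxia terciles against blood were chosen after seeing the data.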
